A study of Mus musculus with 7 samples.

Results

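Extracellular adenosine is made and sensed by a small set of genes, and 6 of them were followed across the leukocytes of GL261 gliomas: the ectonucleotidases Entpd1 (CD39) and Nt5e (CD73), the adenosine receptors Adora2a, Adora2b and Adora3, and the deaminase Ada. They were taken by gene symbol, 6 of the 32285 genes in the deposited matrices. Live CD45+ DRAQ7- cells had been sorted from the tumor-bearing left hemisphere of WT female mice aged 8 to 9 weeks and profiled by droplet single-cell RNA-seq of transcript 3′ ends. All animals carried GL261, a mouse glioma line, tumors were harvested on day 21 after implantation, and treatment began on day 7. The groups were untreated mice (1 library), PT2385, an inhibitor of the hypoxia-inducible factor HIF-2α, at 10 mg/kg (2 libraries), immune checkpoint blockade (ICB) with antibodies aPD-1 and aTIM-3 (2 libraries), and the combination of PT2385 and ICB (2 libraries). Every library was 1 pool of 5000 sorted cells from each of 2 mice, so a library is the replicate and single mice cannot be separated. Whether the untreated mice received vehicle or isotype antibody is not given in the sources used here.

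ATP that leaves stressed or dying cells acts as a danger signal, and cells clear it at their surface in 2 steps. CD39 trims ATP and ADP to AMP, and CD73 takes the phosphate from AMP and releases adenosine. Adenosine then acts on G protein-coupled receptors: those encoded by Adora2a and Adora2b raise cyclic AMP and damp many lymphocyte and myeloid responses, whereas that of Adora3 couples to inhibitory G proteins. Adenosine deaminase ends the signal by turning adenosine into inosine. In hypoxic tumors the pathway is known as a brake on immunity, and Nt5e and Adora2b are textbook targets of hypoxia-inducible factors.

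Because PT2385 acts on such a factor, the promoters were searched for the core of the hypoxia response element, ACGTG or GCGTG on either strand, in the 250 bases before each start site (RefSeq, GRCm38.p6). The table held 6 promoters for 5 of the 6 members, and 38.6% of its 32851 promoters had a match, so a match is common and marks no binding. The sequences below are those of Entpd1, Nt5e and Adora2b, shown 5′ to 3′ on the gene's strand with each match in capitals. Entpd1 (chr19) has an upstream promoter, chr19:40612116-40612365 on the plus strand, whose match starts at position -18 from the start site, and a downstream promoter, chr19:40659520-40659769 on the plus strand, with no match in this window. The promoter of Nt5e, chr9:88327359-88327608 on the plus strand, has its match at position -138. That of Adora2b, chr11:62248734-62248983 on the plus strand, has its match, read on the opposite strand, at position -42. The windows of Adora3 and Ada held none of these letters, and Adora2a was not in the table.
Entpd1 upstream promoter: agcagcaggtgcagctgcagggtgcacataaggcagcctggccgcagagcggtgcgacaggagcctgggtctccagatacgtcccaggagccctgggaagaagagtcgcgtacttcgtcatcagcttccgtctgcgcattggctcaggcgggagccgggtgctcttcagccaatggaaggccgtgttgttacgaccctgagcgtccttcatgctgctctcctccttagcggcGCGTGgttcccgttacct
Entpd1 downstream promoter: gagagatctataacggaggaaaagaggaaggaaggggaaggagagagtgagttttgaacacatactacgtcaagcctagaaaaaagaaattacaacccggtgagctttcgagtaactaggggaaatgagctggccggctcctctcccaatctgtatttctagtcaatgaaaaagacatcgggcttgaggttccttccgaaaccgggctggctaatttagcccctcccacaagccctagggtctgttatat
Nt5e promoter: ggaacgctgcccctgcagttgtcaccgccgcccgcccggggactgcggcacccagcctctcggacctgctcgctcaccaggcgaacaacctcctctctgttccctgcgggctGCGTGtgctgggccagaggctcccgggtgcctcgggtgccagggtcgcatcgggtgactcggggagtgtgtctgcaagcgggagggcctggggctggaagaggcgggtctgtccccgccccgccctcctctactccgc
Adora2b promoter: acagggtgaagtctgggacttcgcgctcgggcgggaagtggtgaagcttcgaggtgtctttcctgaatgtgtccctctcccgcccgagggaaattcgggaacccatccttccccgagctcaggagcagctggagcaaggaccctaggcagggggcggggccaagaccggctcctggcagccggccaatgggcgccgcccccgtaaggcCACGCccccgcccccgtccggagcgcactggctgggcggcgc

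The 7 libraries held 41033 barcodes and 59839154 to 81960504 UMIs (unique molecule counts), and 40416 barcodes passed the filters of at least 300 genes and at most 10% mitochondrial counts. Cell classes were gated on marker genes that include no member. They are named "like" because no deposited annotation was used. Gates placed 28260 cells in 20 classes, left out 3847 barcodes carrying markers of more than 1 lineage, and left 8309 ungated. The 8 classes with at least 20 cells in every library carried the tests: macrophage-like (9907 cells), microglia-like (6054), monocyte-like (4534), CD8 T-like (1604), conventional CD4 T-like (1043), migratory dendritic cell (DC)-like (781), NK-like (750) and regulatory T-like cells (591). Levels are CPM, the UMIs of a gene scaled to all UMIs summed over the class in that library, given as the mean ± SD over libraries. No length correction applies to 3′ counts, so levels are compared between classes and not between genes. Any 2 libraries shared 3 to 17 cell barcodes over the 21 pairs of libraries.

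Entpd1 was mainly a myeloid transcript in these tumors, highest in microglia-like cells among the tested classes. It stood there at 611 CPM in the untreated library, 744 and 694 in the PT2385 pools, 690 and 613 in the ICB pools and 703 and 814 in the combination pools. Macrophage-like cells had 490 ± 84.8 CPM (SD, n = 7) and monocyte-like cells 482 ± 122 (SD, n = 7). Microglia-like cells lay above macrophage-like cells in 7 of 7 libraries (adjusted p = 0.0410, exact sign-flip permutation test, two-sided). Before adjustment over the 42 neighbour pairs of the 6 members the p was 0.0156, the smallest that 7 libraries allow. An adjusted p of 0.0410 in this test thus shows that all 7 libraries had the same direction, and it does not rank the steps. Macrophage-like and monocyte-like cells could not be told apart by the same exact test (higher in 4 of 7 libraries, adjusted p = 0.802). Because they were the most numerous, macrophage-like cells held 43.4% of the Entpd1 UMIs in gated cells, microglia-like cells 35.8% and monocyte-like cells 13.1%. With every cell thinned to 3000 UMIs, an Entpd1 molecule was seen in 80.8% ± 2.78 of microglia-like, 63.3% ± 6.26 of macrophage-like and 5.52% of migratory DC-like cells (n = 7). Neutrophil-like cells, outside the tested classes, had 686 CPM in the first ICB pool and 1352 in the first combination pool.

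Among lymphocytes, regulatory T-like cells had the most Entpd1, at 179 ± 30.7 CPM (SD, n = 7) and 140 to 222 CPM over libraries. CD8 T-like cells followed at 128.3 ± 34.7, conventional CD4 T-like cells at 102 ± 28.8 and NK-like cells at 94.5 ± 29.6 CPM (SD, n = 7 each). The step from regulatory to CD8 T-like cells held in the exact permutation test (adjusted p = 0.0410), while CD8 against CD4 T-like (0.0656) and CD4 T-like against NK-like cells (0.696) did not. Macrophage markers summed to 427 to 1770 CPM in regulatory T-like and 405 to 872 in CD8 T-like cells. They summed to 478 to 1144 CPM in conventional CD4 T-like and 586 to 1889 in NK-like cells. Their part in these Entpd1 levels was not tested.

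Dendritic cells were split. Type 1 conventional DC-like cells, which cross-present antigen, had 516 ± 99.4 CPM (SD, n = 6 libraries with 20 cells) and type 2 conventional DC-like cells 165 ± 53.9 (SD, n = 4). In the 4 libraries with both, type 1 exceeded type 2 by 1.56 ± 0.15 on the log2 scale (SE, edgeR's quasi-likelihood test with the library as block, Benjamini-Hochberg adjusted p = 6.13e-06), the only member with enough counts to be tested there, against 20.4% of all genes called. Migratory DC-like cells, mature DCs on the way to lymph nodes, had the least of the tested classes, 37.0 CPM untreated, 62.4 and 73.7 with PT2385, 37.2 and 25.1 with ICB, and 0 and 50.0 with the combination, below NK-like cells in 7 of 7 libraries (adjusted p = 0.0410, exact permutation test). The first combination pool had no Entpd1 UMI in its 60 migratory DC-like cells, where 3 counts would be 4.80 CPM. Macrophage markers summed to 488 CPM in that pool and to 2203 to 5786 CPM in the others, and their part in the Entpd1 level was not tested.

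**Figure D1:**
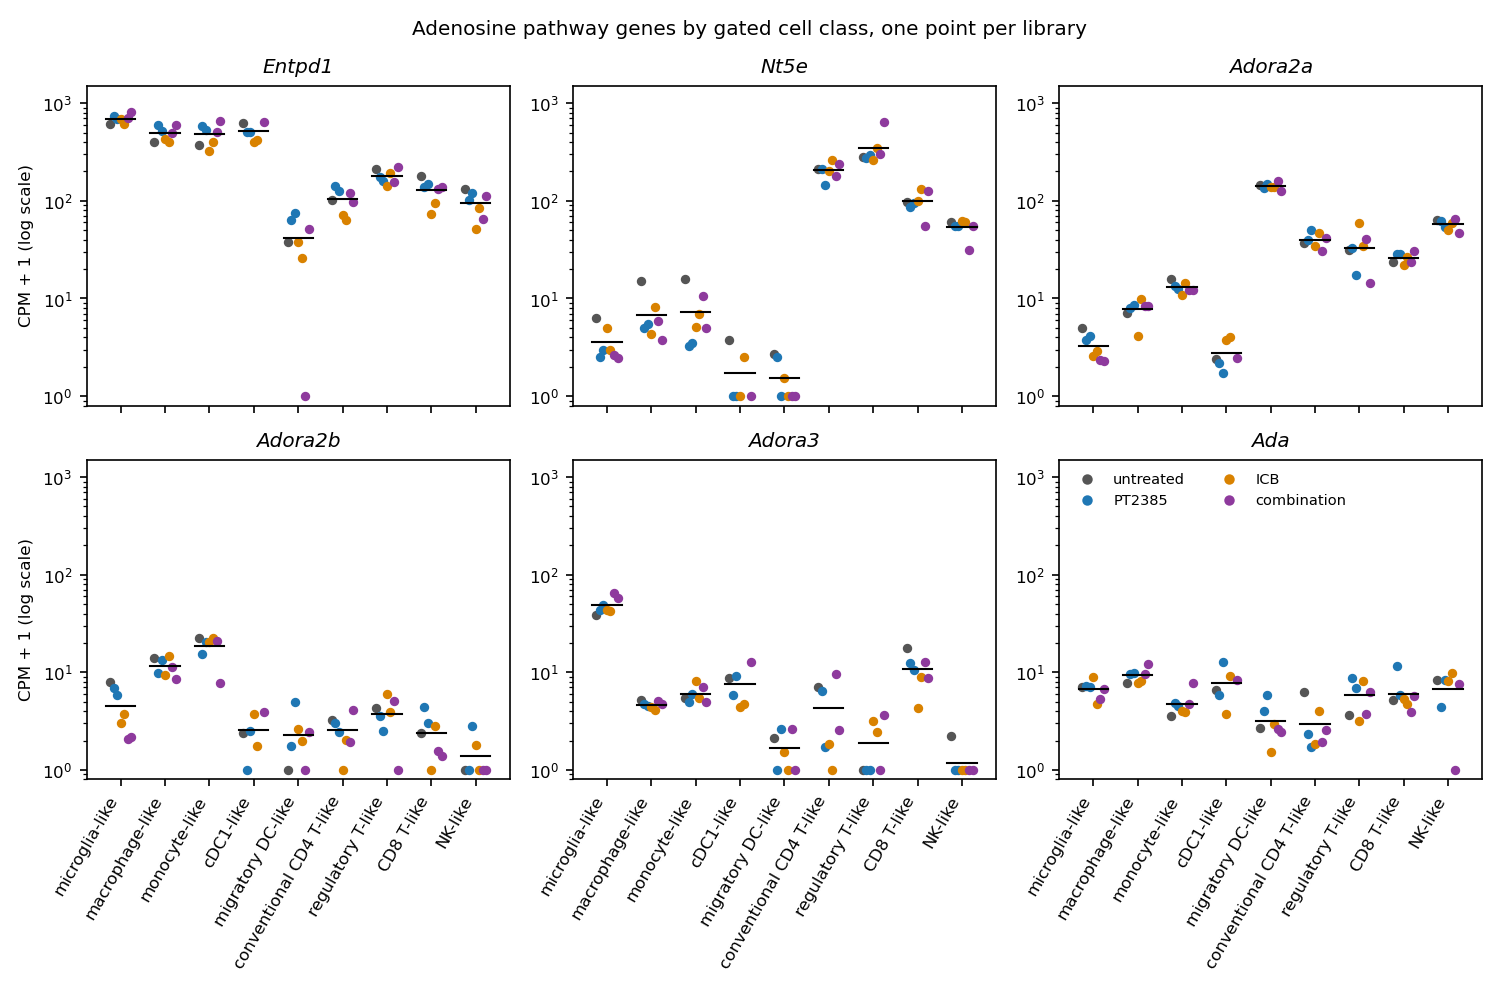
CPM + 1 on a log axis of the 6 members (1 panel each) in the 8 tested cell classes and type 1 conventional DC-like cells; each point is 1 library with at least 20 cells, coloured by treatment group, and the bar is the mean over libraries. Entpd1 is highest in microglia-like cells, Nt5e in regulatory T-like, Adora2a in migratory DC-like, Adora2b in monocyte-like and Adora3 in microglia-like cells among the classes shown.

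The next enzyme of the chain, Nt5e, was found mainly in lymphocytes. Regulatory T-like cells had 283 CPM untreated, 273 and 293 with PT2385, 262 and 346 with ICB and 304 and 641 with the combination. The second combination pool stood alone above the rest, on 34 cells. Conventional CD4 T-like cells followed at 207 ± 39.0, CD8 T-like cells at 97.6 ± 25.4 and NK-like cells at 53.4 ± 10.5 CPM (SD, n = 7 each). Each of these steps held in 7 of 7 libraries (adjusted p = 0.0410 each, exact sign-flip permutation test), as did the drop from NK-like to monocyte-like cells. Monocyte-like, macrophage-like and microglia-like cells had 2.27 to 15.0, 2.79 to 13.9 and 1.44 to 5.35 CPM, with the untreated library highest in each. T cell markers summed to 7 to 13 CPM in macrophage-like cells, and their part in this low Nt5e level was not tested. In plasmacytoid DC-like cells no Nt5e UMI was seen in 190 cells, which allows up to 1.25 CPM. Basophil-like cells, nearly all from the first ICB pool, had 681 CPM there, but only 18 of the 96 cells over all libraries carried a UMI.

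Among the tested classes, both enzymes together were most often seen in regulatory T-like cells. There 264 of 591 cells had a UMI of each, 47.3% ± 8.12 over libraries (SD, n = 7). After thinning to 3000 UMIs the share was 16.9% ± 3.17 and ranged from 13.1% to 22.1% over libraries. The thinned shares were 8.74% ± 3.23 in conventional CD4 T-like, 5.02% ± 2.32 in CD8 T-like and 1.47% ± 1.20 in NK-like cells. Macrophage-like cells reached 0.759% ± 0.537 and microglia-like cells 0.248% ± 0.283. Among the tested classes, those richest in Entpd1 thus rarely carried Nt5e. In regulatory T-like cells the shares of cells with Entpd1 (38.0%) and with Nt5e (44.8%) multiply to 17.0%, near the 16.8% of thinned cells found with both. Outside the tested classes, neutrophil-like cells, rich in Entpd1, had both in 31 of 113 cells before thinning. After thinning the shares were 19.5% and 23.5% in the 2 libraries with at least 20 of these cells, against the mean of 16.9% in regulatory T-like cells, and no test was made of this difference. The share of cells with a UMI counts detection, not expression, at these depths.

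**Figure D2:**
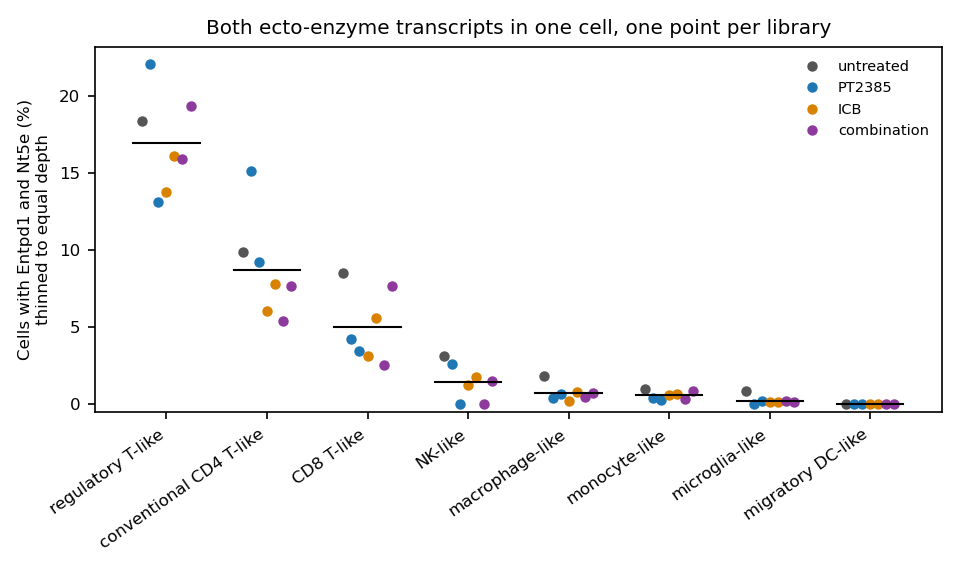
Percent of cells thinned to 3000 UMIs that carry a UMI of both Entpd1 and Nt5e, by cell class; each point is 1 library, coloured by treatment group, and the bar is the mean. Regulatory T-like cells lie between 13.1% and 22.1%, and microglia-like cells below 1%.

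Direct comparisons within the T cells used the library as a block. Regulatory T-like cells exceeded conventional CD4 T-like cells in Entpd1 by 0.77 ± 0.14 (SE, log2, adjusted p = 0.000518) and in Nt5e by 0.63 ± 0.12 (adjusted p = 0.000771), while 23% of all genes were called. Adora2a differed by -0.27 (adjusted p = 0.451), and the receptors Adora2b and Adora3 and Ada had too few counts to be tested. CD8 T-like cells had more Entpd1 than CD4 T-like cells by 0.38 ± 0.10 (adjusted p = 0.0120, higher in 6 of 7 libraries, 0.0625 without the untreated library) and less Nt5e, by -1.05 ± 0.10 (adjusted p = 1.97e-06), with 30.4% of genes called. NK-like cells had less of both enzymes than CD8 T-like cells, by -0.48 ± 0.10 for Entpd1 (adjusted p = 0.000844) and -0.90 ± 0.11 for Nt5e (adjusted p = 3.36e-06), with 37.8% called.

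Within CD8 T-like cells, Entpd1 went with Havcr2, the gene of the exhaustion receptor TIM-3 and the target of the aTIM-3 antibody. Cells with a Havcr2 UMI and no Tcf7 UMI had 198, 154, 163, 124 and 150 CPM of Entpd1 in the 5 libraries that could be compared (untreated, first PT2385 pool, both ICB pools, first combination pool). Cells with Tcf7, a stem-type T cell factor, and no Havcr2 had 51.8, 13.0, 8.92, 35.5 and 60.6 CPM in the same order. The ranges did not overlap, and the difference was 2.48 ± 0.30 (SE, log2, adjusted p = 1.30e-05, edgeR with library block), where 18% of genes were called. Macrophage markers summed to 405 to 872 CPM in CD8 T-like cells as a whole, and their part in this difference was not tested. Nt5e differed by 0.25 (adjusted p = 0.387) and Adora2a by -0.18 (adjusted p = 0.768). The conventional CD4, regulatory and CD8 T-like cells were then pooled to compare T cells in cycle and out of cycle. These differed in none of the 4 members tested (0 at an unadjusted p under 0.05 by edgeR's quasi-likelihood test and 0 called by DESeq2), against 44.6% of all genes called. Ada and Adora2b had too few counts for this test. Cycling markers had a median of 568 CPM in CD8 T-like and 214 in conventional CD4 T-like cells. The part of the class mix in this comparison was not tested.

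Adora2a, the receptor gene best known for restraining T and NK cells, was highest in migratory DC-like cells, with NK-like cells next. Migratory DC-like cells had 145 CPM untreated, 136 and 148 with PT2385, 137 and 138 with ICB and 157 and 127 with the combination. These 7 values were close together (141 ± 9.72, SD, n = 7), with the treatment groups overlapping. A UMI was found in 539 of 781 of these cells, and although few they held 29.2% of the Adora2a UMIs in gated cells. NK-like cells came next at 56.3 ± 7.23 CPM, then conventional CD4 T-like cells at 39.1 ± 6.87 (SD, n = 7 each), and both steps held in 7 of 7 libraries (adjusted p = 0.0410, exact permutation test). CD4, regulatory (31.9 ± 15.0 CPM) and CD8 T-like cells (25.2 ± 3.20 CPM) were not separated from their neighbours in that order (adjusted p = 0.430 and 0.696, exact permutation test). In the fit with library block NK-like cells exceeded CD8 T-like cells by 1.10 ± 0.13 (adjusted p = 4.28e-06), and CD8 T-like cells fell below CD4 T-like cells by -0.58 ± 0.11 (adjusted p = 0.000787).

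In the myeloid line Adora2a stepped down from monocyte-like (12.1 ± 1.65 CPM) to macrophage-like (6.75 ± 1.78) and microglia-like cells (1.28 to 3.98 over libraries), each step in 7 of 7 libraries (adjusted p = 0.0410, exact permutation test). Type 1 conventional DC-like cells had 1.75 ± 0.896 CPM (SD, n = 6), far from the level of the migratory DC-like cells.

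Adora2b, whose receptor has a low affinity for adenosine, was also highest in monocyte-like cells among the tested classes. It was 21.3 CPM untreated, 14.5 and 19.4 with PT2385, 19.5 and 21.4 with ICB and 19.7 and 6.77 with the combination, the second combination pool lying lowest. Macrophage-like cells had 10.7 ± 2.46 CPM (SD, n = 7), and no T-like or NK-like class had more than 5.04 in any library. Monocyte-like cells exceeded macrophage-like cells by 0.71 ± 0.10 for Adora2b (adjusted p = 9.21e-05) and by 0.86 ± 0.13 for Adora2a (adjusted p = 0.000127) in edgeR's test with library block, where 46.6% of all genes were called. The exact permutation test of neighbours did not separate the 2 classes in Adora2b (adjusted p = 0.0656). Adora3 was higher in monocyte-like cells by 0.43 ± 0.14 (adjusted p = 0.0248), a call lost in DESeq2 (adjusted p = 0.0590) and without any of 4 libraries in turn: the second PT2385 pool, either ICB pool or the first combination pool. Ada was lower by -1.20 ± 0.11 (adjusted p = 1.49e-06). Entpd1 (-0.05) and Nt5e (-0.03) were not called (adjusted p = 0.410 and 0.913).

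Outside the tested classes, basophil-like cells stood out: 52 of 96 carried an Adora2b UMI, and their level in the first ICB pool, the only library with enough of them, was 298 CPM on 127 UMIs. Choroid plexus-like cells, which are not leukocytes, had 24.1, 21.9, 19.5 and 22.6 CPM in 4 libraries.

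The genes of both receptors that raise cyclic AMP were higher in macrophage-like cells with Nos2 than in those with Arg1 and no Nos2. Nos2, the nitric oxide synthase of inflammatory macrophages, was seen in 2275 macrophage-like cells, and Arg1 without Nos2 in 2376. Macrophage-like cells with neither gene were not in this comparison. Adora2a was 10.1 CPM untreated, 9.94 and 11.1 with PT2385, 8.29 and 21.1 with ICB and 17.1 and 10.4 with the combination in the Nos2 cells. The Arg1 cells had 4.74, then 3.62 and 3.96, then 2.40 and 6.45, then 5.46 and 4.99 CPM. The ranges did not overlap, and the difference was 1.48 ± 0.15 (SE, log2, adjusted p = 1.83e-06, higher in 7 of 7 libraries), with 14.5% of genes called. Adora2b was higher in Nos2 cells by 0.93 ± 0.12 (adjusted p = 2.02e-05, 7 of 7 libraries). Entpd1 was higher by 0.17 ± 0.05 (adjusted p = 0.0461, 6 of 7 libraries), a call lost in DESeq2 and without 6 of the 7 libraries in turn (each except the second ICB pool). Nt5e (-0.26, adjusted p = 0.660), Adora3 (0.36, adjusted p = 0.424) and Ada (-0.22, adjusted p = 0.416) were not called.

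**Figure D3:**
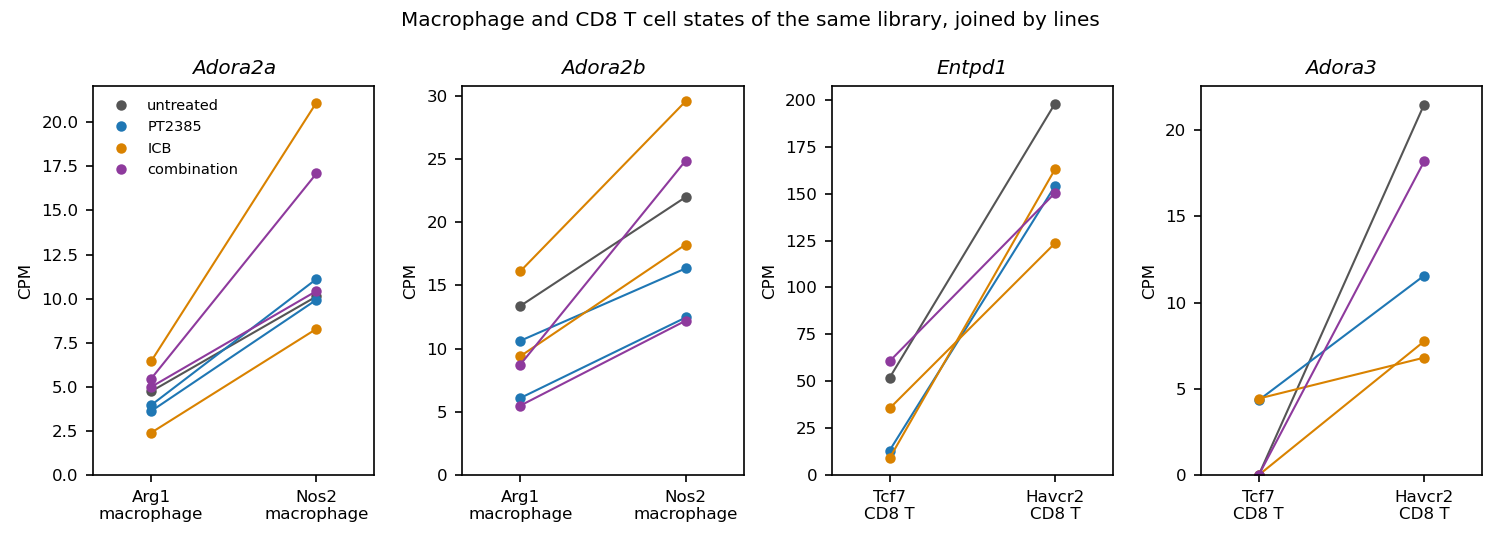
CPM in paired cell states, 1 line per library, coloured by treatment group: Adora2a and Adora2b in Arg1 and Nos2 macrophage-like cells, and Entpd1 and Adora3 in Tcf7 and Havcr2 CD8 T-like cells of the 5 libraries with at least 20 of each. Adora2a lies between 8.29 and 21.1 CPM in Nos2 cells and between 2.40 and 6.45 in Arg1 cells.

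The A3 receptor gene Adora3 belonged to microglia-like cells, which held 78.3% of its UMIs in gated cells. Their level was 38.1 CPM untreated, 42.3 and 48.2 with PT2385, 42.1 and 41.4 with ICB and 64.5 and 57.2 with the combination. All 7 values were far above the next class, CD8 T-like cells, at 9.80 ± 4.20 CPM (SD, n = 7, adjusted p = 0.0410, exact permutation test). The locus of Adora3 overlaps Tmigd3, so how reads were split between the 2 genes is uncertain. Tmigd3 was counted at 2.14 to 6.14 CPM in microglia-like cells. Mast-like cells, the classical site of this receptor, had 95.4 and 82.4 CPM in the 2 libraries that held 20 or more of them.

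Among lymphocytes Adora3 was uneven. It was seen in 129 of 1604 CD8 T-like cells but gave 1 UMI in 750 NK-like cells, a ratio per UMI of 46.4 (95% exact interval 8.20 to 1844, counting error only). In CD8 T-like cells its level was 3.33 to 16.9 CPM, and edgeR put it above CD4 T-like cells by 1.64 ± 0.37 (adjusted p = 0.00314, higher in 7 of 7 libraries). Microglia markers summed to 36 to 63 CPM in CD8 T-like, 20 to 67 in CD4 T-like and 15 to 80 in NK-like cells, and within libraries they were higher in CD8 T-like than in CD4 T-like cells in 6 of 7 and than in NK-like cells in 6 of 7. The part of microglial RNA in these Adora3 levels was not tested. Within CD8 T-like cells, 89 Adora3 UMIs were in Havcr2 cells and 3 in Tcf7 cells, a ratio of 10.1 (exact 95% interval 3.34 to 49.9). The edgeR call (adjusted p = 0.0327) was lost in DESeq2 (0.0759), without the cells of highest UMI count (0.0506) and without the first ICB pool (0.112).

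Ada, whose enzyme removes adenosine, was low in every tested class. Macrophage-like cells led at 8.29 ± 1.56 CPM (SD, n = 7), followed by NK-like cells at 5.80 ± 3.06 and microglia-like cells at 5.73 ± 1.36. No neighbouring pair of classes was separated by the exact permutation test, and NK-like and CD8 T-like cells differed by 0.28 ± 0.39 (adjusted p = 0.618, edgeR). Plasmacytoid DC-like cells had 9.60 ± 2.97 CPM (SD, n = 5), and B-like cells 3.29, 33.4 and 32.2 in 3 libraries.

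Microglia-like against macrophage-like cells called all 6 members, where 73.3% of all genes were called. Adora3 was higher in microglia-like cells by 3.38 ± 0.08 (adjusted p = 1.83e-09). Entpd1 was higher by 0.23 ± 0.07 in the scaled fit (adjusted p = 0.0145) and by 0.52 as a mean log2 ratio of unscaled CPM. Lower in microglia-like cells were Adora2b by -2.04 ± 0.31 (adjusted p = 0.000187), Adora2a by -1.92 ± 0.26 (9.04e-05), Nt5e by -1.45 ± 0.23 (0.000282) and Ada by -0.84 ± 0.17 (0.00125).

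The low members were not spread evenly over the microglia-like cells. Of the 6054 cells, 3527 (58.3%, holding 38.5% of the class's UMIs) carried no UMI of the monocyte and macrophage genes Ly6c2, Plac8, Ccr2, Ms4a7 and Arg1. These cells held 2 of the 221 Adora2b UMIs, 12 of 151 for Adora2a and 17 of 166 for Nt5e, but 1926 of 3710 for Adora3, 23441 of 52866 for Entpd1 and 124 of 415 for Ada. In CPM, Adora2b was 0.0701 without those genes and 4.80 with them, and Adora2a 0.421 and 3.05. Adora3 was 67.5 without and 39.1 with, and Entpd1 822 and 645. This division, made after the values were seen, has no test. Cells without the 5 genes have fewer UMIs (median 6343 to 8626.5 per library).

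**Figure D4:**
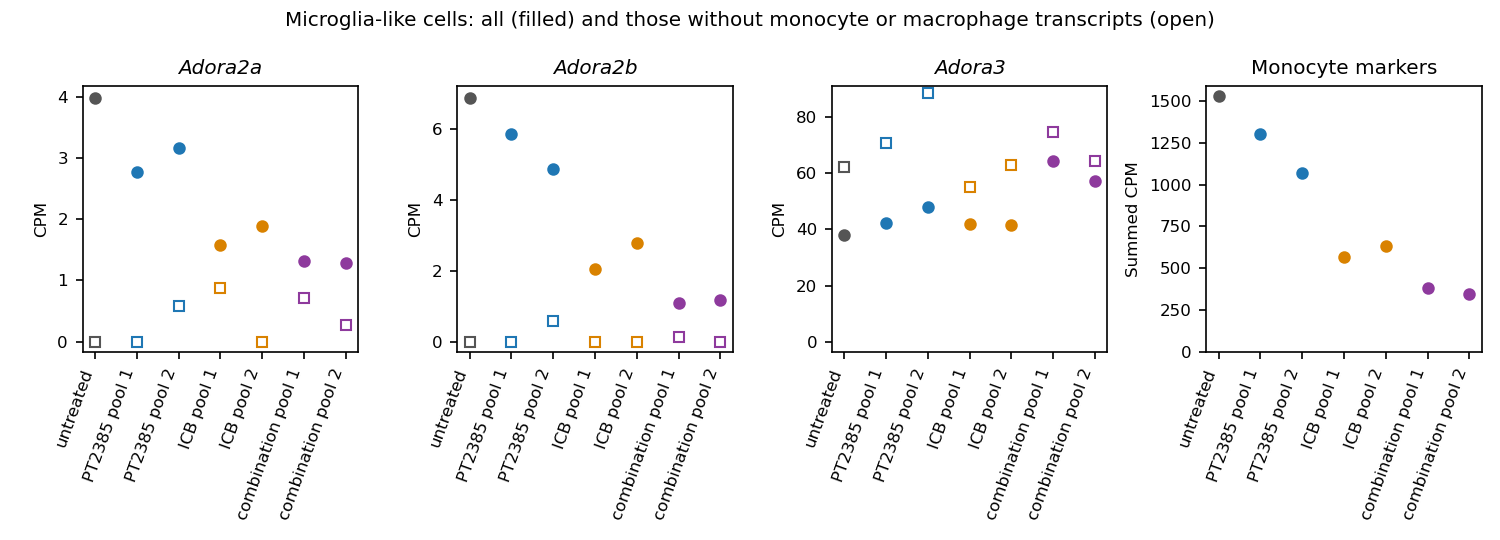
CPM of Adora2a, Adora2b and Adora3 in all microglia-like cells (filled) and in those without a UMI of Ly6c2, Plac8, Ccr2, Ms4a7 or Arg1 (open), and in the last panel the summed CPM of monocyte markers in all microglia-like cells, 1 point per library, coloured by treatment group. Adora2b runs from 1.09 to 6.88 CPM in all cells and stays at or below 0.576 in the open points, while Adora3 is 55.1 CPM or more in them.

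Treatment was compared in each class with edgeR's quasi-likelihood test, as the effect of PT2385 (4 libraries with against 3 without, ICB in the model), of ICB likewise, and of the combination against the untreated library. These comparisons share libraries, so they are not independent, and the lone untreated library is assumed to vary like the other groups. Of 34 member and class pairs tested, PT2385 called 1 and ICB 2, and of 35 the combination called 4. Of all genes, PT2385 called at most 2.97% in any class. ICB called 23.6% in microglia-like cells and at most 0.326% elsewhere, and the combination 16.6% and at most 0.125%. At an unadjusted p under 0.05 there were 9, 6 and 9 pairs, of which 3, 2 and 4 were in microglia-like cells. DESeq2 called 2 in each comparison. For PT2385 these were Entpd1 in macrophage-like and monocyte-like cells, and for ICB and the combination they were in microglia-like cells. In microglia-like cells 1886, 5179 and 4625 of 13266, 13266 and 13796 genes had such a p. There DESeq2 called 325, 2908 and 1658. Under PT2385, 2508 of 13439 genes in macrophage-like and 2104 of 11192 in monocyte-like cells had such a p, and DESeq2 called 700 and 508.

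Under PT2385, Entpd1 rose in monocyte-like cells. It was 373 CPM untreated and 320 and 401 with ICB, against 584 and 536 with PT2385 and 501 and 657 with the combination. All 4 PT2385-treated libraries lay above the other 3, and the effect was 0.61 ± 0.12 (SE, log2, adjusted p = 0.0391). This was the only member called, with 2.97% of all genes in that class. Without the untreated library, either PT2385 pool or the second combination pool the effect was 0.49 to 0.65 and the call was lost (adjusted p = 0.0908 to 0.257). In the model with an interaction of the 2 treatments the PT2385 term compares the pools of PT2385 alone with the lone untreated library. That term was 0.53 and was not called. In the same cells monocyte markers summed to 6619 to 7946 CPM in the 4 PT2385-treated libraries and 9363 to 10206 in the others, and their part in the result was not tested.

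Macrophage-like cells also did not overlap, at 592, 523, 493 and 597 CPM of Entpd1 with PT2385 and 399, 425 and 403 without. Their effect of 0.44 ± 0.09 missed the threshold in edgeR (adjusted p = 0.0814), which called 0.156% of genes in this class. DESeq2 called it (adjusted p = 0.00137), among 700 genes that it called there. In microglia-like cells Entpd1 differed by 0.18 ± 0.10 (adjusted p = 0.437), with 0.369% of genes called and no member among them. The difference between monocyte-like and microglia-like cells in the PT2385 effect on Entpd1 was 0.43 ± 0.13 (adjusted p = 0.224, 0.283% of genes called), and that between monocyte-like and CD8 T-like cells 0.34 ± 0.19 (adjusted p = 0.680, 0.0176% called). The response was thus not shown to be particular to monocyte-like cells.

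Adora3 in microglia-like cells was 42.3 to 64.5 CPM in the 4 PT2385-treated libraries and 38.1 to 42.1 in the other 3. The groups were apart, but the effect of 0.38 ± 0.09 was not called (adjusted p = 0.136) except without the untreated library (adjusted p = 0.0302). Nt5e in microglia-like cells was 1.44 to 1.95 CPM with PT2385 and 1.98 to 5.35 without, again apart and not called (-1.26 ± 0.30, adjusted p = 0.128). In macrophage-like cells Nt5e (-1.09 ± 0.37, adjusted p = 0.179) was called only without the first ICB pool (-1.43, adjusted p = 0.0254), and Ada, at 8.63 to 11.2 CPM with PT2385 and 6.82 to 7.12 without, differed by 0.45 ± 0.14 (adjusted p = 0.148). Entpd1 in conventional CD4 T-like cells differed by 0.53 ± 0.15 (adjusted p = 0.3297). In lymphoid and migratory DC-like cells PT2385 called no member, where it called 0% of genes in migratory DC-like, 0.131% in conventional CD4 T-like, 0.0122% in regulatory T-like, 0% in CD8 T-like and 0.027% in NK-like cells. For the classes at 0%, 616 and 868 genes had an unadjusted p under 0.05, and DESeq2 called 10 and 17.

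Under ICB, Adora2b and Adora2a fell in microglia-like cells. Adora2b was 6.88 CPM untreated and 5.86 and 4.88 with PT2385, against 2.06 and 2.78 with ICB and 1.09 and 1.17 with the combination. Adora2a was 3.98, 2.77 and 3.17 CPM without ICB, against 1.57, 1.88, 1.32 and 1.28 with it. In both genes all 4 ICB-treated libraries lay below the other 3. The effects were -2.07 ± 0.27 for Adora2b (adjusted p = 0.00394) and -1.33 ± 0.24 for Adora2a (adjusted p = 0.00870), in a class where ICB called 23.6% of all genes.

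The summed level of monocyte markers in the microglia-like class was lower with ICB too. It came to 1531 CPM untreated, 1301 and 1071 with PT2385, 566 and 635 with ICB and 384 and 345 with the combination, the same order of groups as Adora2b. Macrophage markers summed to 21933 to 35907 CPM with ICB and 32759 to 33418 without, and the groups overlapped. In the microglia-like cells without monocyte or macrophage transcripts both receptor genes had too few counts to be fitted. The part of the monocyte transcripts in the result was not tested. Both calls held without any 1 library. Neither gene was called in the interaction model, whose ICB term compares the pools of ICB alone with the lone untreated library. The ICB effects differed from those in macrophage-like cells by -1.79 ± 0.29 for Adora2b (adjusted p = 0.00909) and -1.28 ± 0.31 for Adora2a (adjusted p = 0.0340), in a test that called 8.67% of genes.

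No member was called for ICB in another class. The shares of genes called were 0% in macrophage-like cells (1094 genes at an unadjusted p under 0.05, 55 called by DESeq2), 0% in monocyte-like cells (1079 and 62), 0.035% in migratory DC-like, 0.326% in conventional CD4 T-like, 0.0734% in regulatory T-like, 0.0198% in CD8 T-like and 0.027% in NK-like cells. Entpd1 in CD8 T-like cells was 177 CPM untreated, 137 and 146 with PT2385, 72.7 and 93.3 with ICB and 132 and 139 with the combination. The ICB pools were lowest, but the combination pools overlapped the rest and the effect of -0.52 ± 0.19 was not called (adjusted p = 0.890).

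The combination against the untreated library called 4 members, all in microglia-like cells, where 16.6% of genes were called. Adora2b (-2.77 ± 0.36, adjusted p = 0.00239), Adora2a (-1.79 ± 0.39, 0.0185) and Nt5e (-1.98 ± 0.44, 0.0200) were lower, and Adora3 was higher (0.49 ± 0.14, 0.0419). Nt5e was 1.63 and 1.44 CPM in the combination pools and 5.35 in the untreated library. Monocyte markers in microglia-like cells summed to 384 and 345 CPM in the combination pools and 1531 in the untreated library. Their part in these calls was not tested. Without either combination pool the calls of Adora2a (adjusted p = 0.0617 and 0.0874), Nt5e (0.0596 and 0.0955) and Adora3 (0.149 and 0.0696) were lost, and that of Adora2b was kept. DESeq2 called Adora2b and Nt5e but not Adora2a (adjusted p = 0.0617) or Adora3 (0.117). Without the cells of highest UMI count only Adora2b was still called, while Adora2a (adjusted p = 0.0661), Nt5e (0.110) and Adora3 (0.122) were not. In the cells without monocyte or macrophage transcripts Adora3 differed by 0.11 ± 0.21 (adjusted p = 0.941), and the other 3 could not be fitted. Elsewhere no member was called, with 0% of genes in macrophage-like cells (1409 at an unadjusted p under 0.05, 92 by DESeq2), 0% in monocyte-like cells (1125 and 50), 0.0108% in migratory DC-like, 0.102% in conventional CD4 T-like, 0.125% in regulatory T-like, 0.047% in CD8 T-like and 0.0494% in NK-like cells.

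**Figure D5:**
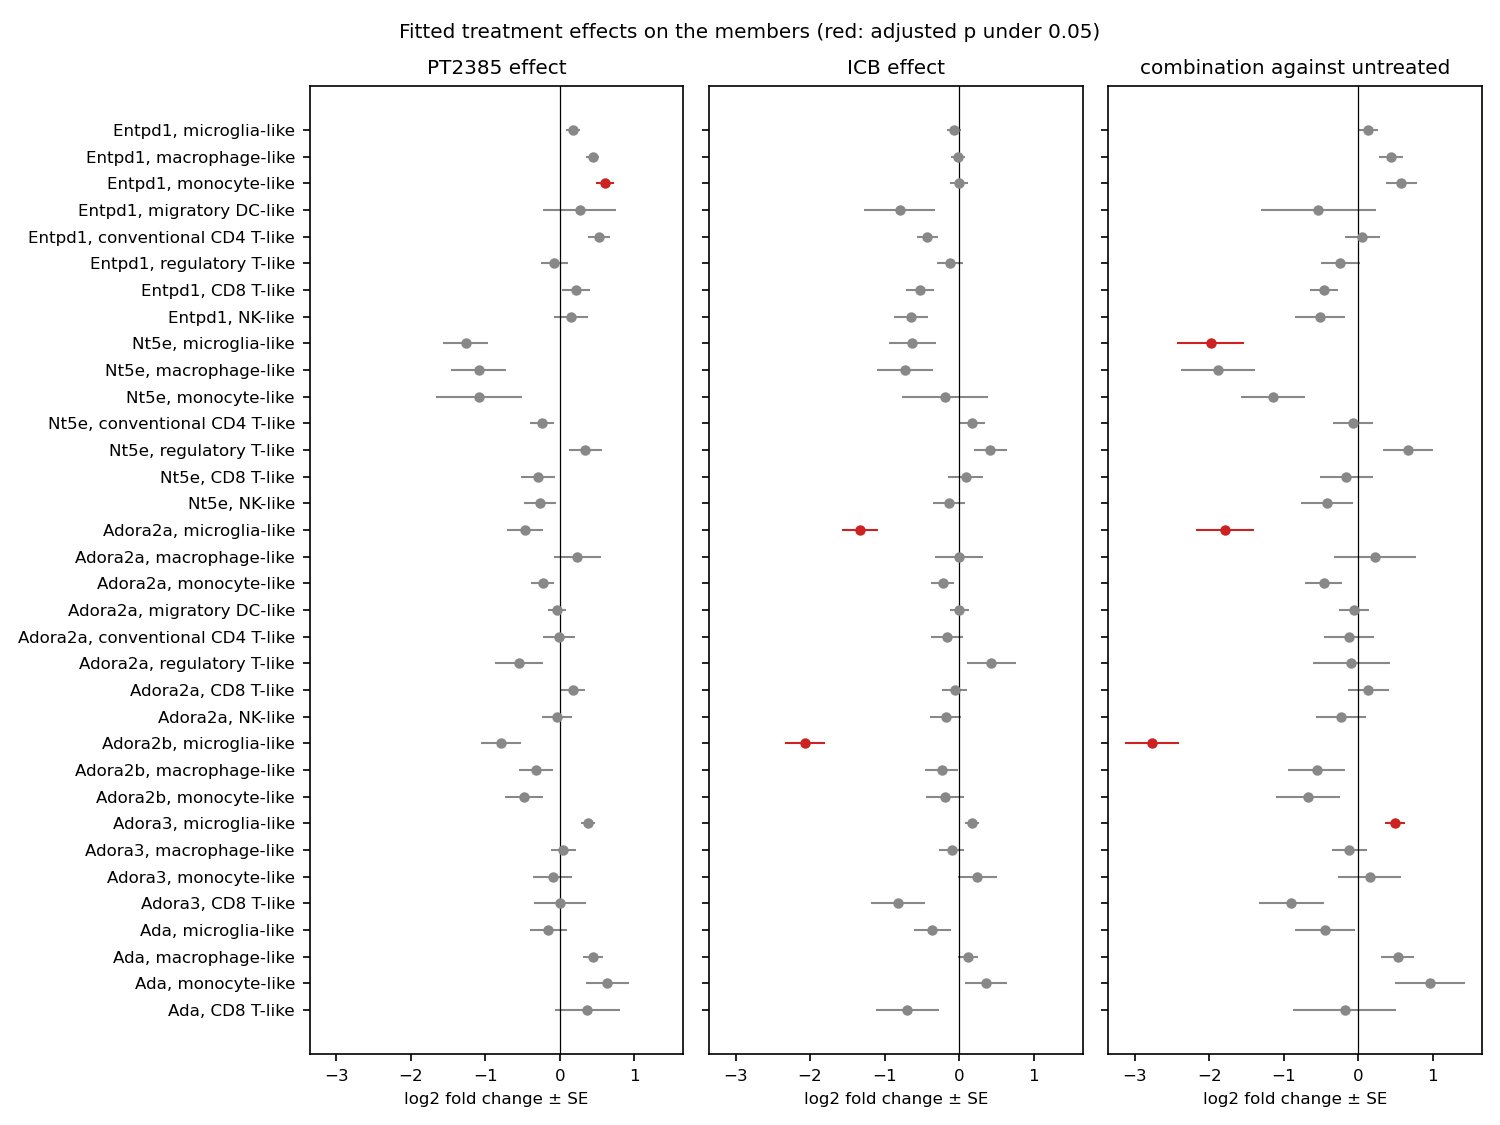
Log2 effect with its standard error of PT2385, ICB and the combination on each member in the tested classes, from edgeR; each point is a member in a class, red where the adjusted p was under 0.05 and grey otherwise. Red points are Entpd1 in monocyte-like cells under PT2385 and receptors and Nt5e in microglia-like cells under ICB or the combination.

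Of 28 other genes of purine handling, PT2385 called 2 of the 18 tested in monocyte-like cells, both higher, with a list median of -0.02 against 0.01 for all genes, where 2.97% of all genes were called. Cd38, an ectoenzyme that splits NAD and feeds a route to adenosine that bypasses CD39, was 29.7 CPM untreated and 14.3 and 36.0 with ICB, against 124 and 159 with PT2385 and 84.6 and 90.0 with the combination. The PT2385-treated libraries lay apart from the rest, with an effect of 1.92 ± 0.27 (adjusted p = 0.0121). Bst1 (CD157), its close relative, rose by 1.21 ± 0.17 (adjusted p = 0.0130). Cd38 lost its call without the untreated library or the second combination pool, and Bst1 without these or either PT2385 pool. In conventional CD4 T-like cells Adk, the kinase that returns adenosine to AMP inside cells, was 127.6 CPM untreated and 210 and 214 with ICB, against 77.2 and 35.9 with PT2385 and 70.6 and 94.2 with the combination. It fell by 1.33 on the log2 scale (adjusted p = 0.0358), the only purine gene of 15 called there, and the call was lost without any library but the first PT2385 pool.

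Under ICB, 5 of 23 purine genes were called lower in microglia-like cells and 0 higher, a share near the 23.6% of all genes called there. The list median was -0.23 against 0.00 for all genes, and Bst1 changed most (-1.81 ± 0.34, adjusted p = 0.00970; 0.0507 without the second combination pool). Monocyte markers moved with ICB in these cells, as given above. Of 16 genes of cyclic AMP response and signalling 5 were lower, against the same 23.6%, among them the phosphodiesterase Pde4b (-1.14 ± 0.17, adjusted p = 0.00549) and the nuclear receptor Nr4a2 (-1.16 ± 0.26, adjusted p = 0.0180), and 1 was higher, Pde4d (0.53 ± 0.12, adjusted p = 0.0179). Under the combination, where 16.6% of all genes were called in this class, 2 of 23 purine genes were lower, Slc28a2 and Entpd7, and of the 16 cyclic AMP genes 6 were lower and 1, Adcy7, higher. Without the second combination pool Slc28a2 (adjusted p = 0.0785) and Entpd7 (0.0910) were no longer called.

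Between classes, the counts of called purine genes are read against the share of all genes called. In microglia-like against macrophage-like cells 7 of 23 were higher and 11 lower, near the background of 73.3%. The higher genes were led by Adora1, the remaining adenosine receptor, at 5.39 ± 0.43 (adjusted p = 3.80e-06), and the lower by Bst1 (-2.11) and Cd38 (-2.06). Adora1 was low in both classes, with means of 5.98 CPM in microglia-like and 0.144 CPM in macrophage-like cells. Nos2 against Arg1 macrophages had 3 of 20 higher, led by Cd38 (0.66 ± 0.06, adjusted p = 5.16e-07), and 3 lower, against 14.5% of all genes. Regulatory against conventional CD4 T-like cells had 4 of 15 higher, led by the ATP-gated channel P2rx4 (0.85 ± 0.15, adjusted p = 0.000556) and the ATP-release channel Panx1 (0.78 ± 0.14), and 2 lower, against 23%. Havcr2 against Tcf7 CD8 T-like cells had Cd38 higher (1.53 ± 0.31, adjusted p = 0.00175) and 4 of 13 lower, with Adk at -2.64 ± 0.21 and P2rx7 at -2.59 ± 0.55, against 18%. NK-like against CD8 T-like cells had 0 of 16 higher and 6 lower, led by Dpp4, the surface peptidase CD26 (-4.48 ± 0.23, adjusted p = 7.61e-11), near the background of 37.8%.

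The genes whose levels ran most like each member over the 56 class and library sums were compared as a description, since sums share libraries and classes. For Entpd1 the closest was Map11 (Pearson r = 0.94), followed by Frrs1, Rcbtb2, Tnfaip8l2 and Ly6e. Nt5e ran with Leprotl1 (0.97), Cxcr3, Myo3b, Ctla4 and Rnf125, and Adora2a with 4930523C07Rik (0.94), Nck2, Tpm4, Ralgapa2 and Glipr2. Adora2b ran with Taldo1 (0.88), Ifitm3, Tpi1, Znhit1 and Pgam1. Adora3 ran with Nav3 (0.81), Srgap2, Atp2c1 and Plxdc2. Ada ran most with Glmp (0.65), then Mtx1, Atp6v1h, Tgs1 and Uap1l1. Among the members, Entpd1 and Adora2a ran opposite (r = -0.85), and Entpd1 and Nt5e showed little relation (r = -0.12).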

How the data were processed

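UMI counts per gene and barcode were used as deposited; Cell Ranger 7.0.0 made them per the file headers, while the submitters' processing notes name Cell Ranger 2.2.0, Seurat 5 and GRCm39. Barcodes under 300 genes or over 10% mitochondrial counts were dropped, and the rest were gated on marker genes. Barcodes with markers of more than 1 lineage were left out as possible doublets. Doublets of like cells were not removed, and leaving out the cells of highest UMI count was an alternative. Counts were summed per library and class (at least 20 cells) and tested with edgeR 4.0.16 (TMM, quasi-likelihood, Benjamini-Hochberg over all genes tested, threshold 0.05) under R 4.3.3, with DESeq2 1.42.0 as an alternative. The script was tested on simulated data. Neighbouring classes were compared by exact sign-flip permutation of log2(CPM + 1). Members with enough counts were tested in each class and comparison, and those not described singly are given by counts; purine and cyclic AMP genes are named by the 2 largest called changes each way, and for each member the 5 most correlated genes with a mean of at least 20 CPM, 1 of which is not reported here. The members and lists were chosen with earlier results of these data known. Intervals and limits cover counting error only.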

Additional observations from a re-analysis of the deposited data

Results flagged for a closer look

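Under ICB the effects on Adora2a and Adora2b differed between microglia-like and macrophage-like cells in a test of the difference itself. The difference, microglia-like minus macrophage-like, was -1.28 ± 0.31 (SE, log2) for Adora2a (edgeR's quasi-likelihood test with library block, adjusted p = 0.0340) and -1.79 ± 0.29 for Adora2b (adjusted p = 0.00909). This test was added after the data were seen, and it called 8.67% of 13978 genes. All 4 ICB-treated libraries were below the other 3 in microglia-like cells for both genes, whereas in macrophage-like cells the groups overlapped. The monocyte markers in microglia-like cells, 345 to 635 CPM with ICB and 1071 to 1531 without, moved in the same direction, and their part was not tested.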

How the results depend on the processing

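No result named in the text reversed under any alternative run. Of 701 values over 53 named results, 613 kept their direction and side of the threshold. The counts of members called below stand without the share of all genes called in each run. They describe the runs and are not results about the members. For PT2385 in macrophage-like cells, for example, DESeq2 called 700 genes and edgeR 21. The interaction model compares each treatment alone with the lone untreated library. PT2385 called 1 member and class pair, 2 in DESeq2, 0 in the interaction model, 7 with no filter on low counts and 0 to 2 leaving out a library. ICB called 2, and 0, 4 and 2 to 2 in the interaction model, with no filter and leaving out a library. The combination called 4, 2 in DESeq2, 7 with no filter, 1 without the cells of highest UMI count and 1 to 5 leaving out a library. Havcr2 against Tcf7 cells called 2 members, and 1 in DESeq2, with stricter gates or without the highest-UMI cells, and 1 to 2 leaving out a library. Type 1 against type 2 DC-like cells called 1, and 2 with no filter; cycling against non-cycling T cells called 0, and 1 with no filter or without the highest-UMI cells. Detection of both enzymes in regulatory T-like cells went from 47.3% to 16.9% on thinning. The cause of these changes was not tested. The exact permutation test of neighbours passed 16 of 42 pairs, 16 with means per cell and 17 with stricter gates. Between treatment groups, no paired analysis was possible because the labels tie no library of a group to a library of another; pool numbers only follow the order of the records. Comparisons between classes had the library as a block. A gene at a few CPM in a class rests on few UMIs, and with 1 untreated pool its own spread cannot be measured.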

Other observations

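Genes of the list of 16 for cyclic AMP response and signalling were also compared between classes, by edgeR's quasi-likelihood test with library block, and each count stands beside the share of all genes called. Regulatory against conventional CD4 T-like cells had 2 of 15 tested higher, among them Crem (0.42 ± 0.09, SE, log2, adjusted p = 0.00312), and 7 lower, led by the phosphodiesterase gene Pde3b (-1.74 ± 0.20, adjusted p = 7.58e-06), against 23% of all genes. CD8 against CD4 T-like cells had 1 higher, Pde3b, and 7 lower, led by Nr4a1 (-1.43 ± 0.09), against 30.4%. Havcr2 against Tcf7 CD8 T-like cells had 4 higher, led by the G protein regulators Rgs2 (1.38 ± 0.23) and Rgs1 (1.26 ± 0.16), and Pde3b lower (-0.57 ± 0.14), against 18%. NK-like against CD8 T-like cells had 3 higher and 2 lower, against 37.8%, and cycling against non-cycling T cells 1 higher and 9 lower, against 44.6%. Monocyte-like against macrophage-like cells had 6 of 16 higher, led by Nr4a1 (0.84 ± 0.07), and 6 lower, led by Rgs1 (-1.25 ± 0.11), against 46.6%. Microglia-like against macrophage-like cells had 6 higher, led by Pde3b (2.37 ± 0.14), and 8 lower, against 73.3%, and Nos2 against Arg1 macrophages 1 higher and 6 lower, against 14.5%. Type 1 against type 2 DC-like cells had 0 higher and 3 lower, against 20.4%.

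Purine genes in the remaining comparisons were 5 of 21 higher and 8 lower in monocyte-like against macrophage-like cells, with Dpp4 at 1.90 ± 0.18 and the ATP-splitting enzyme Enpp1 at -2.25 ± 0.22, against 46.6% of all genes. They were 4 of 16 higher and 5 lower in CD8 against CD4 T-like cells, with Cd38 at 0.94 ± 0.10 and the ATP-gated channel P2rx7 at -1.91 ± 0.21, against 30.4%. In cycling against non-cycling T cells 2 were higher, the nucleoside transporter gene Slc29a1 (1.03 ± 0.15, adjusted p = 1.67e-05) and Pnp (0.34 ± 0.09), and 7 were lower, against 44.6%. Type 1 against type 2 DC-like cells had 2 of 13 higher and 3 lower, against 20.4%. Border macrophages, the 1005 macrophage-like cells with at least 2 of 5 border markers, had 392 to 511 CPM of Entpd1 and 8.59 to 13.8 of Ada over libraries.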
